A study of Mus musculus with 12 samples.

Results

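The 8 genes described here encode the enzymes of the pentose phosphate pathway and the main NADPH producers beside it in the liver cytosol. They were taken from the gene table by symbol (*G6pdx*, *Pgls*, *Pgd*, *Rpia*, *Tkt*, *Taldo1*, *Me1* and *Idh1*) and make up 8 of its 24411 genes. All 8 passed the filter on low counts. Liver poly(A) RNA was sequenced from 3 genotypes of 3-month-old mice, with 3 mice per genotype. All 9 mice carried *Atg7*flox/flox, alleles of the autophagy gene *Atg7* that Cre can delete, on a C57BL/6 background. The cont. mice had no Cre. The *Atg7*-KO mice (flox/flox;Alb-Cre) carried Cre under the albumin promoter, which acts in hepatocytes. Whether the other cells of the liver kept *Atg7* was not tested. The *Atg7*-KO;*p62*T352A mice (flox/flox;Alb-Cre;p62T352A/p62T352A; the double mutants) also carried, on both alleles, a knock-in of p62 in which the protein no longer holds KEAP1 in p62 bodies; the knock-in was made by prime editing in embryonic stem cells. The comparisons ask how the transcripts of these enzymes differed when hepatocytes lost autophagy, and how they differed when p62 could in addition not retain KEAP1.

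The pentose phosphate pathway starts from glucose 6-phosphate. Its oxidative branch yields NADPH and ribulose 5-phosphate through glucose-6-phosphate dehydrogenase (*G6pdx*), 6-phosphogluconolactonase (*Pgls*) and 6-phosphogluconate dehydrogenase (*Pgd*), and its non-oxidative branch interconverts sugar phosphates through ribose-5-phosphate isomerase (*Rpia*), transketolase (*Tkt*) and transaldolase (*Taldo1*). Malic enzyme 1 (*Me1*) and isocitrate dehydrogenase 1 (*Idh1*) make NADPH in the cytosol without the pathway. Several of these genes are textbook targets of NRF2, the transcription factor that KEAP1 marks for degradation, and hepatocytes spend NADPH on lipid synthesis and on the glutathione and thioredoxin systems.

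NRF2 binds with a small MAF protein to antioxidant response elements, whose core can be written TGACNNNGC. These letters were searched on both strands of the RefSeq promoter windows (GRCm38.p6, 250 bases before to 50 after each start). All 8 genes had a window, 11 in all because *Pgd*, *Me1* and *Idh1* had more than 1 start. A match stood in a window of 3 of the 8 genes (*G6pdx*, *Pgd* and *Me1*), beside 14% of the 27025 genes with a window and 12.4% of all 32851 windows. The 3 windows are shown because they are the only ones of the 11 with a match; each runs 5′ to 3′ on the strand of its gene, and the capitals mark the match.
*G6pdx*, chrX:74428831-74429130, minus strand: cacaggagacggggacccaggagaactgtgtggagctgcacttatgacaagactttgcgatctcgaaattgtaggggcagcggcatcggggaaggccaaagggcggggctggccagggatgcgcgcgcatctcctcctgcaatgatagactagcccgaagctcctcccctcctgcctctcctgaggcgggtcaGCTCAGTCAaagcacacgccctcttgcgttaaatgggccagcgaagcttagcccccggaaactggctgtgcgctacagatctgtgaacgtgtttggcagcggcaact
*Pgd*, second start, chr4:149166033-149166332, minus strand: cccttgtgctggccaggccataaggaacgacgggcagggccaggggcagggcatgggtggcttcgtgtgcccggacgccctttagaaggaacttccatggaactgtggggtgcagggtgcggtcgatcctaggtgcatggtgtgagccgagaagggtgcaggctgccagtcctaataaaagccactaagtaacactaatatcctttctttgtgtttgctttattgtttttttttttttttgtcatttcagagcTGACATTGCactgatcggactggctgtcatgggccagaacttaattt
*Me1*, first start, chr9:86695865-86696164, minus strand: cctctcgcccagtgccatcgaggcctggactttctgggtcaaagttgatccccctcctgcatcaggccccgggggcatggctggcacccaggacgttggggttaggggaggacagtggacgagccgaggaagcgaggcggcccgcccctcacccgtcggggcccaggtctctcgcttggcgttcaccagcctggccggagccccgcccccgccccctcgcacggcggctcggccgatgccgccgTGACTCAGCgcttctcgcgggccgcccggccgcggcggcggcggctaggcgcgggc
In *G6pdx* the match lay on the strand opposite to the gene, with its first base at -57 from the start, and read TGACTGAGC on that strand. In *Pgd* it began at base 4 of the transcript from the second start and read TGACATTGC. That start lies within the gene, downstream of the first start, whose window had no match. The *Pgd* match therefore does not lie before either start. In *Me1* it began at -6 and read TGACTCAGC, whose first letters TGACTCA also spell the element of the AP-1 factors. The E-box CACGTG, searched in the same way and present in 7.15% of all windows, had no match in the 11 windows. Such matches describe the letters of the windows and no binding.

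The libraries held 9671073 to 23285134 counts in cont., 16157275 to 18480541 in *Atg7*-KO and 16133626 to 17357183 in double-mutant mice, and the smallest count of any of the 8 genes in a mouse was 43. Levels are given as normalized CPM, that is, CPM (read counts relative to the library total) after the libraries were scaled to each other by the TMM method. The mean level of *Atg7* was 48.7 ± 5.94 normalized CPM in cont. livers (SD, n = 3, as for all such errors), 10.6 ± 1.27 in *Atg7*-KO livers and 28.9 ± 1.28 in double-mutant livers. It was lower than in cont. in both Cre genotypes (log2 fold change -2.20 and -0.75), but it was higher in the double mutant than in *Atg7*-KO livers by 1.45 on the log2 scale, so between these 2 genotypes the *Atg7* transcript and the *p62* allele cannot be told apart. By immunoblot the authors found hardly any ATG7 protein or LC3-II in livers of either Cre genotype, and they read this as blocked autophagy. Which cells or alleles the remaining *Atg7* transcript came from was not tested. *Sqstm1*, the gene of p62, stood at 387 normalized CPM in cont., 914 in *Atg7*-KO and 545 in double-mutant livers. Within a genotype, the Spearman correlation between mice over the 13922 genes that passed the filter was 0.907 to 0.979 in cont., where mouse 1 stood apart, 0.99 to 0.994 in *Atg7*-KO and 0.973 to 0.982 in double-mutant livers. Mouse 1 of each genotype also differed from mice 2 and 3 in sex-linked transcripts, with 7 to 28 counts of *Xist* against 8578 to 18335, and with a summed count of 4 Y-linked genes of 2101 to 2773 against 19 to 613. These counts are not scaled for depth, and in cont. the split was less clean. There the lowest, median and highest mice had 6.04, 23.6 and 68.2 normalized CPM of the Y-linked *Ddx3y*. Those of *Atg7*-KO had 0.384, 2.34 and 46.5, and those of the double mutant 2.94, 8.20 and 70.5. *Xist* in cont. was at 0.401, 1181 and 2015. A cont. mouse other than mouse 1 thus held *Xist* and an intermediate *Ddx3y* level, and the reason was not tested.

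The levels of cell type markers differed too. All 6 hepatocyte markers fell in *Atg7*-KO against cont. livers, and their summed level was 79023 to 128233 normalized CPM in cont., 35754 to 37954 in *Atg7*-KO and 110830 to 128157 in double-mutant livers. Most of that sum was *Alb*. In the double mutant against cont., 1 of the 6 was called lower and 0 higher. Without overlap, 2 were higher there (*Apoa1* and *Ttr*) and 2 lower. The latter were *Cps1* and *Cyp2e1*, with means of 3218 and 7530 in cont., 1089 and 751 in *Atg7*-KO and 1432 and 3840 in double-mutant livers. Of 7 macrophage and Kupffer cell markers, 5 rose and 1 fell, and their sum was 235 to 334, 887 to 928 and 164 to 317 in the same order. Of 6 markers of other leukocytes 5 rose, with sums of 14.9 to 26.4, 61.8 to 68.1 and 21.7 to 24.3. The sum of 5 cholangiocyte and progenitor markers, of which 4 rose, was 33.4 to 51.2, 823 to 1018 and 180.3 to 265, and that of 4 proliferation genes, which all rose, was 4.64 to 9.89, 73.1 to 127.7 and 7.35 to 25.5. *Spp1* made up most of the cholangiocyte and progenitor sum (means of 33.8, 871 and 172), while *Sox9* had means of 4.87, 25.7 and 30.8. In the double mutant, 3 of these 5 markers were called lower than in *Atg7*-KO and 3 higher than in cont. Of 6 stellate cell markers 5 rose (sums of 189 to 239, 756 to 911 and 296 to 514), and of 5 endothelial markers 2 rose and 1 fell (220.1 to 294, 215 to 225 and 123 to 153). Of 3 erythroid markers 1 fell (88.7 to 404, 198 to 244 and 60.6 to 208). Within that sum *Hba-a1* had its highest mean in *Atg7*-KO livers (72.3, 192 and 0.350). The means of *Hbb-bs* (31.1, 11.2 and 24.4) and *Alas2* (103.5, 17.6 and 94.1) were lowest there. No marker was at 0 throughout a genotype. In the double mutant against cont., 3 of 5 endothelial and 1 of 3 erythroid markers were called lower. Called higher there were 2 of 6 stellate cell markers and 2 of 4 proliferation genes. With 1 mouse left out, these 4 counts ranged from 2 to 3, 0 to 1, 0 to 2 and 0 to 3 in the order named. Of the macrophage, Kupffer cell and other leukocyte markers, 0 were called in the fit of all mice. In whole liver, fewer cells of a type and less RNA per cell cannot be told apart, and the part of these shifts in the levels of the 8 genes was not tested.

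In *Atg7*-KO against cont. livers, 5 of the 8 genes rose: *Pgd*, *G6pdx*, *Tkt*, *Taldo1* and *Rpia*. *Pgls*, *Me1* and *Idh1* did not pass the test, for which a gene needed a fold change above 1.5 and a Benjamini-Hochberg FDR below 0.05. Over all 13922 genes tested, 21.6% were called higher and 22.1% lower, and the median log2 fold change of the 8 genes was 0.97 beside -0.03 for all genes. The 3 mice of each genotype did not overlap for 7 of the 8 genes, 6 higher and 1 (*Pgls*) lower in *Atg7*-KO, beside 55.5% of all genes in either direction. In the double mutant against *Atg7*-KO livers, 5 genes fell, *Pgd*, *G6pdx*, *Tkt*, *Me1* and *Taldo1*, and *Pgls*, *Rpia* and *Idh1* did not pass. There 24.7% of all genes were called higher and 26.2% lower, and the median of the 8 was -0.94 beside 0.0021. The groups did not overlap for 5 genes that were lower and 2 (*Pgls* and *Idh1*) that were higher, beside 73.2% of all genes. In the double mutant against cont. livers, 0 of the 8 genes were called with edgeR and 0 with DESeq2, 1 gene (*Rpia*) had an unadjusted p under 0.05, and the groups overlapped for every one of the 8. The background was 6.25% of all genes called higher, 5.34% called lower and 26.6% without overlap. The contrasts share mice: the levels of cont. and of the double mutant are both read against the same 3 *Atg7*-KO livers.

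**Figure D1:**
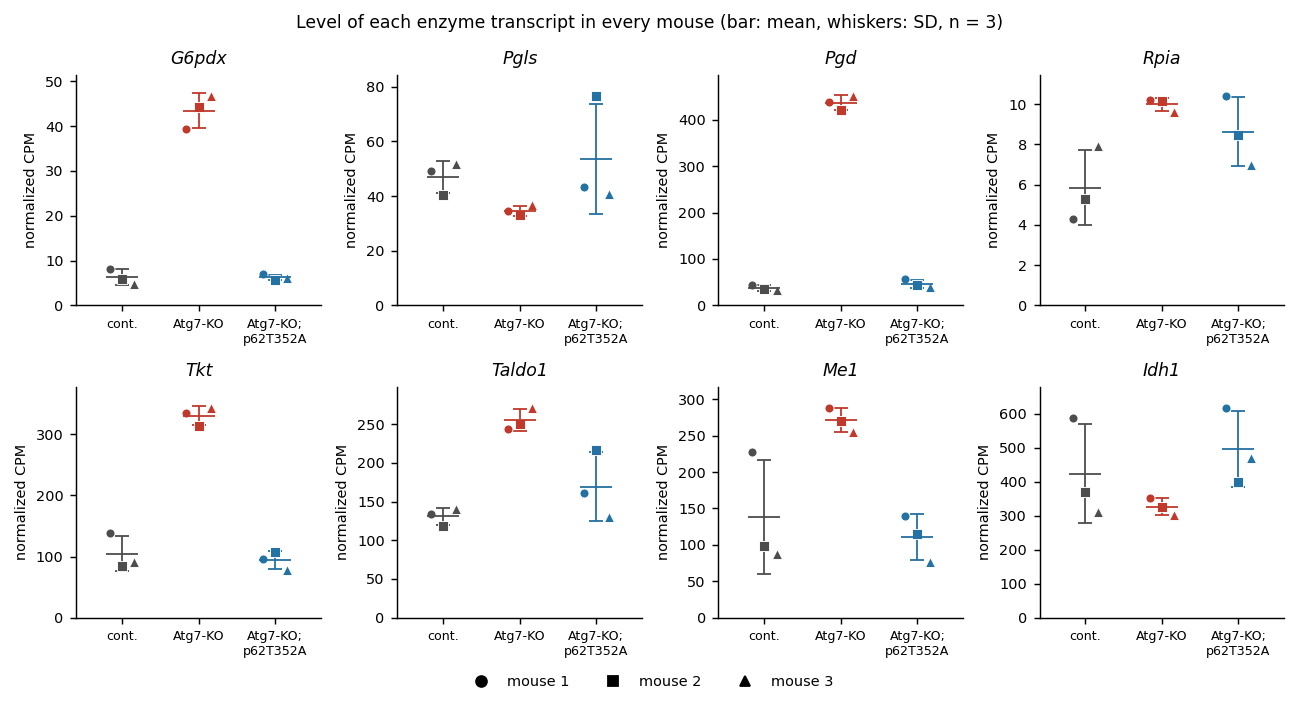
Level of each of the 8 transcripts in every mouse, in normalized CPM on linear axes that start at 0, with 1 panel per gene and 1 column per genotype; symbols give the mouse number, horizontal bars the mean and whiskers the SD (n = 3). *G6pdx*, *Pgd* and *Tkt* are high only in the 3 *Atg7*-KO mice, whereas *Pgls* and *Idh1* are lowest on average there and *Rpia* is also high in mouse 1 of the double mutant (labelled *Atg7*-KO;*p62*T352A on the axes).

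How the libraries are scaled matters for these values, because the TMM factors were 1.28 to 1.32 in *Atg7*-KO and 0.75 to 0.953 in the other livers. With library totals alone (an alternative added once the data had been seen) the median over all genes of the log2 fold change moved to 0.55 in *Atg7*-KO against cont. and to -0.57 in the double mutant against *Atg7*-KO. The calls over all genes then split into 5926 higher and 1103 lower in the former (3006 and 3074 with TMM) and into 1342 higher and 6138 lower in the latter (3443 and 3652 with TMM). Under that scaling *G6pdx*, *Pgd*, *Tkt*, *Taldo1* and *Rpia* again rose in *Atg7*-KO against cont. and *Me1* was added, while the small differences of *Pgls* and *Idh1* turned to 0.13 and 0.23, both under the median of all genes. In the double mutant against *Atg7*-KO, *Rpia* joined the 5 genes that fell (-0.80).

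Oxidative branch. *G6pdx* encodes the enzyme that commits glucose 6-phosphate to the pathway and lies on chromosome X (GRCm38, 74409483-74429194, minus strand). Its level was 8.19, 5.86 and 4.73 normalized CPM in cont. mice 1, 2 and 3, 39.3, 44.4 and 46.8 in the *Atg7*-KO mice, and 6.93, 5.67 and 6.07 in the double-mutant mice. Every *Atg7*-KO mouse stood far above every other mouse, and the other genotypes overlapped. *G6pdx* rose 6.87-fold in *Atg7*-KO against cont. (log2 fold change 2.78, SE 0.22, FDR 3.07e-05) and was 6.98-fold lower in the double mutant than in *Atg7*-KO (log2 fold change -2.80, SE 0.22, FDR 3.48e-05). Between the double mutant and cont. the log2 fold change was -0.02, with a 95% interval from -0.51 to 0.46. Between mice of the same number, the log2 difference of *Atg7*-KO to cont. was 2.26 in mice 1, which differed from the others in sex-linked transcripts, 2.92 in mice 2 and 3.31 in mice 3. Of the 75-base stretches of the *G6pdx* transcript, 4.19% also occur in another gene, mostly in *Ikbkg*, which overlaps it on the opposite strand, and the strand setting of the counting is not given in the sources used here.

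*Pgd*, whose enzyme makes the pathway's other NADPH, changed most of the 8. The gene (chromosome 4, 149149991-149166771, minus strand) stood at 44.8, 35.9 and 32.9 normalized CPM in cont., 438.6, 420.03 and 452 in *Atg7*-KO, and 56.9, 42.9 and 40.1 in double-mutant mice. The *Atg7*-KO mice lay within a narrow range far above the rest, and the highest double-mutant mouse exceeded all cont. mice while the others fell among them. *Pgd* rose 11.5-fold in *Atg7*-KO (log2 fold change 3.53, SE 0.21, FDR 1.28e-05), and it was 9.37-fold lower in the double mutant than in *Atg7*-KO (-3.23, FDR 1.91e-05). Against cont., *Pgd* in double-mutant livers had a log2 fold change of 0.30 that did not pass (FDR 0.35, 95% interval -0.14 to 0.74).

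*Pgls*, the lactonase between these dehydrogenases, did not rise with them. Its levels (chromosome 8, 71592176-71601092, plus strand) were 49.0, 40.3 and 51.7 normalized CPM in cont., 34.4, 32.9 and 36.6 in *Atg7*-KO, and 43.3, 76.8 and 40.7 in double-mutant mice. All *Atg7*-KO mice were below the others, and mouse 2 of the double mutant was far above its group. Neither difference passed the test, with a log2 fold change of -0.44 in *Atg7*-KO against cont. (FDR 0.164, 95% interval -0.99 to 0.11) and 0.63 in the double mutant against *Atg7*-KO (FDR 0.0516). The latter passed without cont. mouse 1 (FDR 0.0331) and without double-mutant mouse 1 (0.0446) or mouse 3 (0.0316), and in the fit of these genotypes alone (0.64, FDR 0.0374). The annotation places 776 exonic bases of *Pgls* under *Fam129c* on the same strand, although no 75-base stretch of the *Pgls* transcript used here was shared with another gene.

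Non-oxidative branch. *Tkt*, whose enzyme moves 2-carbon units between sugar phosphates, is on chromosome 14 (30548359-30574720, plus strand). It stood at 138, 85.2 and 91.5 normalized CPM in cont., 334, 314 and 344 in *Atg7*-KO, and 96.8, 107.7 and 77.6 in double-mutant mice. The other mice did not overlap with *Atg7*-KO, and among them cont. mouse 1 was the highest. *Tkt* rose 3.15-fold in *Atg7*-KO (log2 fold change 1.65, SE 0.23, FDR 0.00044) and 1.90 on the log2 scale when cont. mouse 1 was left out. In the double mutant it was 3.52-fold lower than in *Atg7*-KO (-1.81, FDR 0.000249) and differed from cont. by -0.16 (95% interval -0.65 to 0.33).

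*Taldo1*, the gene of transaldolase (chromosome 7, 141392199-141402968, plus strand), stood at 133, 118 and 141 normalized CPM in cont., 244, 250.2 and 271 in *Atg7*-KO, and 162, 217 and 129.6 in double-mutant mice. Again the *Atg7*-KO mice were the highest, but double-mutant mouse 2 came close to them. *Taldo1* rose 1.95-fold in *Atg7*-KO (log2 fold change 0.96, SE 0.21, FDR 0.00471). It was 1.51-fold lower in the double mutant than in *Atg7*-KO (-0.59, FDR 0.0347), just past the fold threshold. This fall no longer passed in any fit that left out an *Atg7*-KO mouse (FDR 0.0743, 0.0828 and 0.108 without mice 1, 2 and 3), nor without cont. mouse 2 (fold under the threshold), double-mutant mouse 1 (0.0984) or double-mutant mouse 3 (0.126). It was also lost without the mice numbered 1 (FDR 0.0807), with glmTreat, which tests against the fold threshold itself (0.414), and in the fit of these genotypes alone, where the log2 fold change of -0.58 was under the fold threshold.

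*Rpia*, whose isomerase makes ribose 5-phosphate, was, beside *G6pdx*, the member with the lowest level in cont. livers. Its levels (chromosome 6, 70765720-70792232, minus strand) were 4.30, 5.30 and 7.91 normalized CPM in cont., 10.2, 10.1 and 9.60 in *Atg7*-KO, and 10.4, 8.48 and 6.98 in double-mutant mice. Every *Atg7*-KO mouse exceeded all cont. mice, and those of the double mutant overlapped with each of the other genotypes. *Rpia* rose 1.73-fold in *Atg7*-KO (log2 fold change 0.79, SE 0.25, FDR 0.0286). Unlike *Tkt*, it did not pass the test between the double mutant and *Atg7*-KO (-0.21, FDR 0.49, 95% interval -0.76 to 0.34), nor against cont. (0.58, FDR 0.172); the difference between the changes of *Rpia* and *Tkt* was not tested. The rise in *Atg7*-KO was lost without cont. mouse 2 (FDR 0.0928) and without *Atg7*-KO mouse 1 (0.0778), 2 (0.0777) or 3 (0.0665), and without the mice numbered 1 of all genotypes (0.59, FDR 0.0662).

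NADPH producers outside the pathway. *Me1* turns malate into pyruvate with NADPH and supplies lipid synthesis. Its levels (chromosome 9, 86581371-86695953, minus strand) were 228, 98.2 and 88.0 normalized CPM in cont., 288, 269.8 and 255 in *Atg7*-KO, and 139, 115 and 76.8 in double-mutant mice. Above all others stood the *Atg7*-KO mice, but cont. mouse 1 came close to them and more than doubled the level of cont. mice 2 and 3. In *Atg7*-KO against cont. *Me1* did not pass (log2 fold change 0.97, SE 0.36, FDR 0.0503), whereas the value was 1.54 (FDR 0.000386) without cont. mouse 1 and 1.49 (FDR 0.000897) without the mice numbered 1 of all genotypes. *Me1* fell in the double mutant against *Atg7*-KO (2.45-fold lower, -1.30, SE 0.36, FDR 0.0138), a call lost without double-mutant mouse 3 (-1.09, FDR 0.056). Of the 75-base stretches of the *Me1* transcript, 23.6% also occur in other genes, mostly in *Gm7049*, so its counts are uncertain where reads could be split.

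*Idh1*, the cytosolic isocitrate dehydrogenase (chromosome 1, 65158616-65186500, minus strand), did not follow *Me1*. It stood at 588, 370.1 and 312 normalized CPM in cont., 352.4, 324 and 303 in *Atg7*-KO, and 618, 399 and 471 in double-mutant mice. The range of the *Atg7*-KO mice held cont. mouse 3, and it lay below the other cont. mice and below all double-mutant mice. None of its differences passed the test: -0.37 in *Atg7*-KO against cont. (FDR 0.273), 0.60 in the double mutant against *Atg7*-KO (FDR 0.0799) and 0.23 against cont. (FDR 0.62). Without cont. mouse 1 these became -0.06 for the *Atg7*-KO comparison and 0.61 with FDR 0.0146 for the comparison of the double mutant with *Atg7*-KO, which also passed in the fit of these genotypes alone (0.61, FDR 0.0154).

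**Figure D2:**
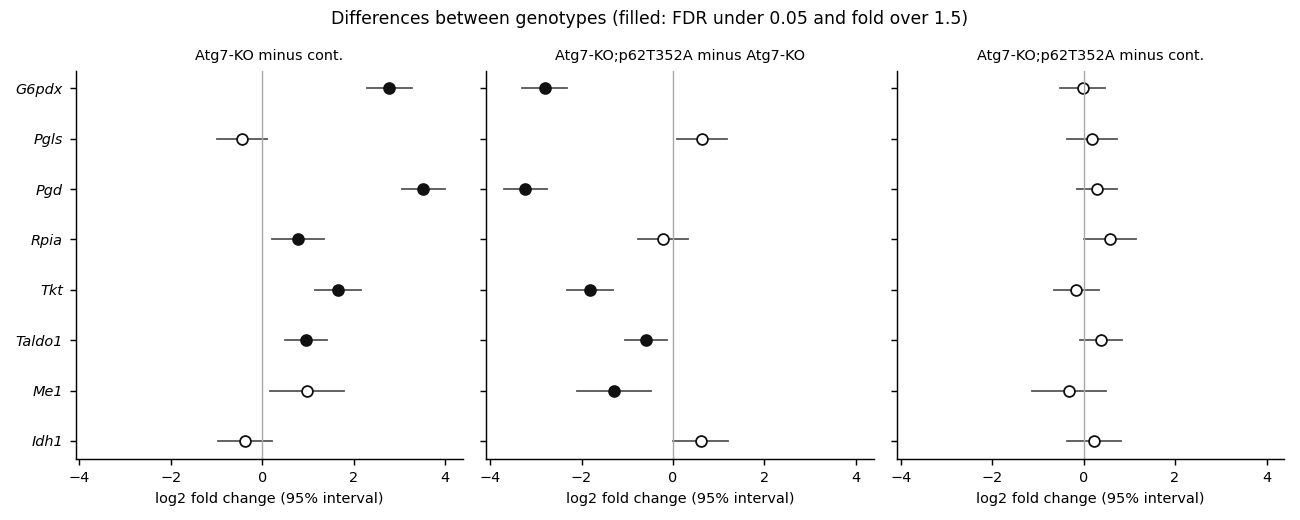
Log2 fold change of each gene in the 3 comparisons, with 95% intervals from the edgeR fit as horizontal lines; filled points passed FDR under 0.05 and a fold change over 1.5, and open points did not. *Pgd* and *G6pdx* lie farthest from 0 in the comparisons with *Atg7*-KO (3.53 and 2.78, then -3.23 and -2.80), and no point is filled for the double mutant minus cont.

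Per length of transcript, the order of the enzymes differed between genotypes. In cont. livers *Idh1* led with 184 normalized CPM per kb, followed by *Taldo1* (106), *Pgls* (52.6), *Me1* (42.0), *Tkt* (32.6), *Pgd* (17.1), *Rpia* (3.19) and *G6pdx* (2.36). The mice of *Pgls* and *Me1*, of *Me1* and *Tkt*, and of *Rpia* and *G6pdx* overlapped, so that these neighbours did not differ beyond their spread. In *Atg7*-KO livers *Taldo1* (208) and *Pgd* (197) led and overlapped with each other, ahead of *Idh1* (142), *Tkt* (102.6), *Me1* (82.4), *Pgls* (38.8), *G6pdx* (16.4) and *Rpia* (5.46), all of which were separate from their neighbours. *Pgd* thus moved from rank 6 to rank 2 of the 8, and *G6pdx* moved above *Rpia*. In double-mutant livers the order was that of cont. again, with *Pgd* at 21.0 and *G6pdx* at 2.35 normalized CPM per kb; there *Idh1* overlapped with *Taldo1*, *Me1* with *Tkt*, and *Tkt* with *Pgd*.

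**Figure D3:**
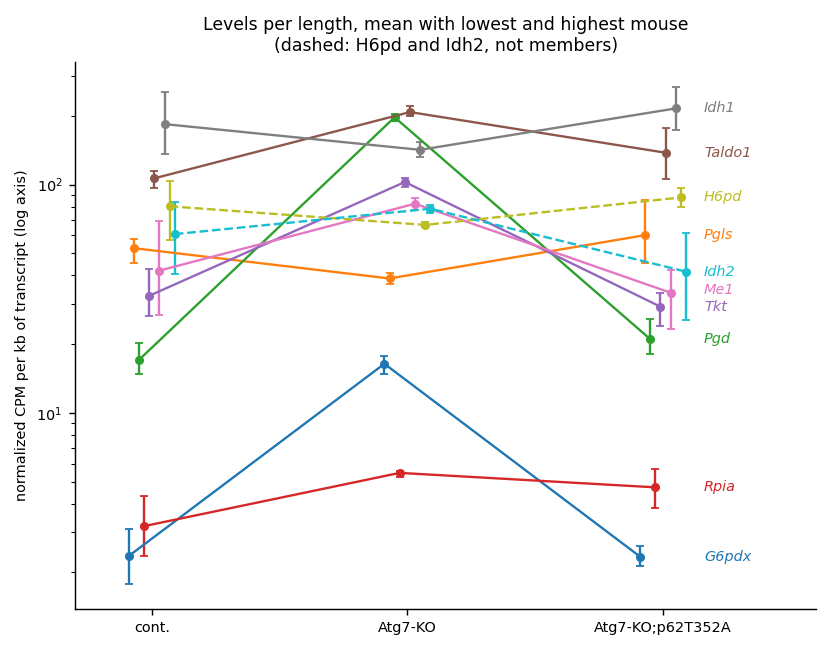
Levels of the 8 genes, and of the related genes *H6pd* and *Idh2*, in normalized CPM per kb of transcript on a log axis; points are means of 3 mice, and lines reach from the lowest to the highest mouse. *Pgd* climbs from 17.1 in cont. to 197 in *Atg7*-KO and is at 21.0 in double-mutant livers, and *G6pdx* lies under *H6pd* in every genotype.

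Summed per branch on the same per-kb scale, the oxidative enzymes had 72.1 ± 7.62 (SD, n = 3) in cont. livers, 252 ± 9.80 in *Atg7*-KO and 83.4 ± 21.6 in double-mutant livers. The rise of this sum in *Atg7*-KO was almost wholly that of *Pgd* (means of 17.1 in cont. and 197 in *Atg7*-KO). *G6pdx* added little (2.36 and 16.4), and *Pgls* was lower (52.6 and 38.8). The non-oxidative enzymes had 142 ± 14.7, 316 ± 14.7 and 172 ± 40.8. *Me1* and *Idh1* together had 226 ± 86.8, 224 ± 15.9 and 249.0 ± 54.2, so their sum overlapped between the genotypes, whereas each branch sum was higher in every *Atg7*-KO mouse than in any other mouse.

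Ratios of 2 genes within a library do not depend on how libraries are scaled, so 4 of them were compared. The ratio of *Me1* to the mitochondrial *Me3* was not formed because *Me3* had at most 11 counts. With 3 mice against 3, the exact permutation test (two-sided) cannot go below 0.1, and over the 12 tests of ratios the smallest adjusted p was 0.133, so no ratio passed. *H6pd* encodes a related dehydrogenase in the endoplasmic reticulum. The log2 ratio of *G6pdx* to *H6pd* counts was -5.85, -5.96 and -5.77 in cont., -3.00, -2.77 and -2.66 in *Atg7*-KO, and -5.98, -6.00 and -6.03 in double-mutant mice. The ratio was thus higher by 3.05 in *Atg7*-KO than in cont., and the double mutant lay 0.15 below cont. without overlap (exact permutation p = 0.1 for each).

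Within a library, the log2 ratio of *Pgd* to *G6pdx* was 2.45, 2.61 and 2.78 in cont., 3.48, 3.24 and 3.27 in *Atg7*-KO, and 3.03, 2.91 and 2.72 in double-mutant mice. Without overlap, the *Atg7*-KO mice were the highest, 0.72 above cont. (exact permutation p = 0.1), and the double-mutant mice overlapped with cont. (p = 0.2, exact). For *Tkt* to *Taldo1* the log2 ratio was 0.05, -0.47 and -0.62 in cont., 0.45, 0.33 and 0.34 in *Atg7*-KO, and -0.74, -1.01 and -0.74 in double-mutant mice. Here the 3 genotypes did not overlap, and the double-mutant mice lay 0.48 below cont. (exact permutation p = 0.1). *Idh2* encodes the mitochondrial counterpart of *Idh1*. The *Idh1* to *Idh2* log2 ratio was 2.55, 2.38 and 1.09 in cont., 1.42, 1.25 and 1.09 in *Atg7*-KO, and 3.80, 1.89 and 2.84 in double-mutant mice, so the Cre genotypes did not overlap with each other while cont. overlapped with both.

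**Figure D4:**
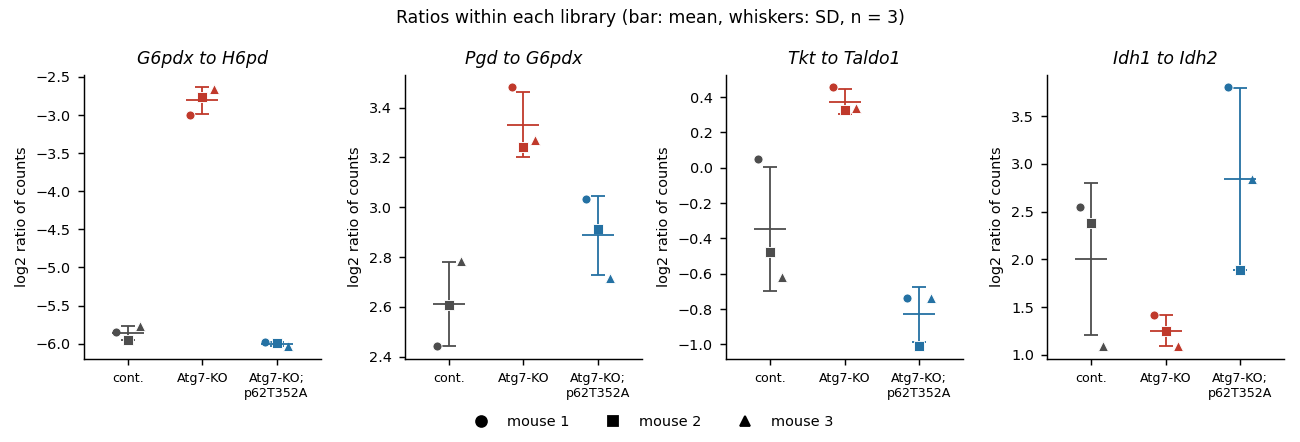
Log2 ratio of the counts of 2 genes within each library, by genotype; symbols give the mouse number, bars the mean and whiskers the SD (n = 3), and the axes do not start at 0. The *G6pdx* to *H6pd* ratio is near -2.8 in *Atg7*-KO mice and near -6 in the others, and the *Tkt* to *Taldo1* ratio separates all 3 genotypes.

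Of the relatives of the 8 enzymes, *Me2* was called in every comparison, *Idh2* in 1 and *H6pd* in none. *H6pd* stood at 367 ± 106.5 normalized CPM in cont. livers, 304 ± 8.62 in *Atg7*-KO and 401 ± 37.7 in double-mutant livers and passed the test in no comparison (FDR 0.345, 0.156 and 0.751). *Idh2* did not pass in *Atg7*-KO against cont. (log2 fold change 0.37, FDR 0.389), but fell in the double mutant against *Atg7*-KO (-0.92, FDR 0.0426). *Me2*, a mitochondrial malic enzyme, rose in *Atg7*-KO (3.60 ± 0.159 normalized CPM in cont., 8.29 ± 0.118 in *Atg7*-KO, log2 fold change 1.20, FDR 0.00144). In double-mutant livers *Me2* fell below *Atg7*-KO (-2.50, FDR 5.69e-05) and also below cont. (-1.30, FDR 0.01), with 1.46 ± 0.287 normalized CPM. The call of *Me2* against cont. was lost in the fit of these genotypes alone and with glmTreat. *G6pd2*, *Tktl1*, *Tktl2* and *Me3* had too few counts to be tested.

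Among the other genes of pentose and ribose phosphate metabolism, 8 of 12 could be tested, and in *Atg7*-KO against cont. 1 of them was called, with a median log2 fold change of 0.06 over the 8. That gene was *Shpk*, which fell and whose sedoheptulokinase feeds the non-oxidative branch: 62.3 ± 16.4 normalized CPM in cont., 22.1 ± 1.81 in *Atg7*-KO and 49.99 ± 3.13 in double-mutant livers (-1.49, FDR 0.000412). It rose in the double mutant against *Atg7*-KO (1.17, FDR 0.00112), where the other 7 did not pass. Of a list of other possible NADPH producers and NAD kinases, 10 of 12 could be tested: 2 rose and 2 fell in *Atg7*-KO against cont. (median 0.05), and 1 rose and 2 fell in the double mutant against *Atg7*-KO (median 0.07). The list was not sorted by the cofactor that each enzyme prefers, so a rise of a member need not mean more NADPH. Beside *Me2*, *Mthfd2*, a mitochondrial folate dehydrogenase, rose in *Atg7*-KO (1.33, FDR 0.0332). *Aldh1l1* and *Mthfd1*, the cytosolic folate enzymes that handle NADPH, fell (-1.26, FDR 0.00256, and -0.65, FDR 0.0348); *Aldh1l1* alone had 1408 ± 323 normalized CPM in cont. and 588 ± 74.3 in *Atg7*-KO livers.

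The genes that supply and use glucose 6-phosphate split, with 7 of 15 higher and 6 lower in *Atg7*-KO than in cont. (median -0.41) and 6 higher and 6 lower in the double mutant than in *Atg7*-KO (median -0.06). The shares of all genes were 21.6% higher and 22.1% lower in the former comparison and 24.7% and 26.2% in the latter. *Hk2*, a hexokinase that is low in healthy hepatocytes, rose from 2.54 ± 1.08 to 18.2 ± 3.16 normalized CPM (2.87, FDR 0.000269), and *Pgm1*, a phosphoglucomutase by its symbol, from 5.51 ± 0.759 to 14.2 ± 0.274 (1.37, FDR 0.000544). The annotation behind the symbols is not given, so which gene the *Pgm1* row counts is uncertain. In cont. livers the *Pgm2* row stood far higher, at 197 ± 57.6. *Gckr*, the regulator of glucokinase, fell from 369 ± 222 to 65.3 ± 3.22 (-2.50, FDR 0.00216), and *G6pc*, the phosphatase that releases glucose, from 668 ± 263 to 139 ± 53.6 (-2.26, FDR 0.00196). All 4 moved the other way in the double mutant against *Atg7*-KO (*Hk2* -1.70, *Pgm1* -1.08, *Gckr* 2.35, *G6pc* 1.85). They were named for their large changes against cont. in the same *Atg7*-KO mice, so that choice favours such a return. *Hk2* was still higher in every double-mutant mouse (3.78 to 6.64 normalized CPM) than in the cont. mice (1.38 to 3.50).

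Of 17 enzymes that use NADPH, 10 rose and 2 fell in *Atg7*-KO (median 0.83), and 2 rose and 9 fell in the double mutant against *Atg7*-KO (median -1.25). *Cbr3*, a carbonyl reductase, went from 1.16 ± 0.323 to 331 ± 15.2 normalized CPM, and *Nqo1*, a quinone reductase, from 8.61 ± 3.14 to 214 ± 37.3, and they stood at 1.17 ± 0.625 and 14.4 ± 3.52 in double-mutant livers. *Txnrd2*, the mitochondrial thioredoxin reductase, and *Tm7sf2*, a sterol reductase, fell in *Atg7*-KO (-1.41, FDR 0.000247, and -1.03, FDR 0.0219). Of 13 lipogenic genes, 5 were called in *Atg7*-KO against cont., all of them lower (median -0.11), and 3 rose and 2 fell in the double mutant against *Atg7*-KO (median 0.22). *Mlxipl*, the gene of the carbohydrate-responsive factor ChREBP, fell most, from 1248 ± 850 to 107.1 ± 12.2 normalized CPM (-3.54, FDR 0.00137), ahead of *Thrsp* (-1.70, FDR 0.0336). A reference list of 12 NRF2 targets without any of the 8 genes rose whole in *Atg7*-KO and fell whole in the double mutant (medians 2.23 and -2.15); *Slc7a11*, the cystine carrier, had the largest rise, from 0.378 ± 0.221 to 247 ± 83.0 normalized CPM. The lists share *Nqo1*, *Txnrd1*, *Cbr3* and *Fasn* among them, and all were chosen with earlier results of these data known.

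Some of these calls rest on single mice or on the scaling. Leaving out 1 *Atg7*-KO mouse, whichever it was, ended the calls of *Mthfd2*, *Mthfd1* and *Thrsp* in *Atg7*-KO against cont. and that of *Idh2* between the Cre genotypes, and the fall of *Tm7sf2* was lost without *Atg7*-KO mouse 2 or 3. The fall of *Mthfd1* was lost as well without cont. mouse 1 or 3, without the mice numbered 1, with upper-quartile scaling, without the filter, with glmTreat and with the replicate block. *Mthfd2* was lost without cont. mouse 2 or 3 and with glmTreat, *Thrsp* without cont. mouse 3 and with glmTreat, and *Tm7sf2* with glmTreat. The fall of *Idh2* was also lost without double-mutant mouse 1 or 3, without the mice numbered 1 and with glmTreat. Without cont. mouse 1, 4 of the 8 other pentose and ribose phosphate genes were called in *Atg7*-KO against cont. instead of 1. With library totals in place of TMM, 5 of those 8 were called, and *Mthfd1*, *Tm7sf2* and *Thrsp* no longer passed. The lower *Atg7* level of the double mutant against cont. was lost when any mouse of the double mutant was left out. *Cbr3*, *Nqo1*, *Hk2*, *Pgm1*, *Gckr*, *G6pc*, *Mlxipl*, *Shpk* and *Me2* kept their calls in *Atg7*-KO against cont. in every fit without 1 mouse.

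**Figure D5:**
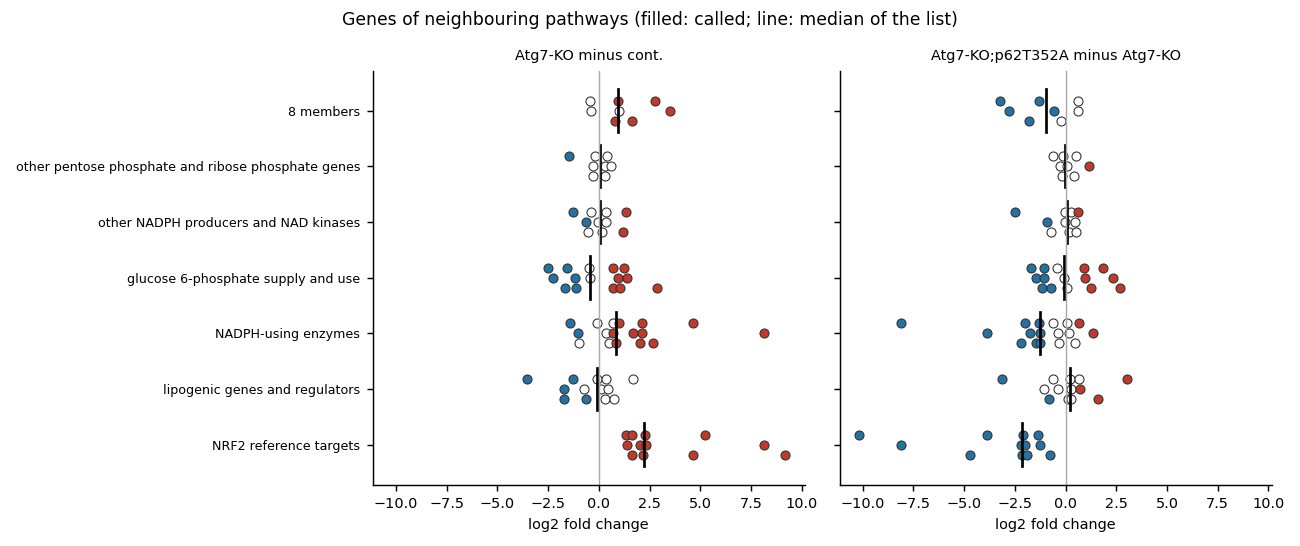
Log2 fold change of every tested gene of the 8 members and of 6 lists of neighbouring genes, in 2 comparisons; each point is 1 gene, filled red if called higher, filled blue if called lower and open if not called, and black lines mark the median of each list. The members have medians of 0.97 and -0.94, the other pentose phosphate genes lie near 0 except *Shpk*, and the NRF2 reference targets are all filled.

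The profile of the 8 genes over the 9 mice was summarised by their mean z-score of log2 CPM, which was -0.79 to -0.15 in cont., 0.61 to 0.69 in *Atg7*-KO and -0.59 to 0.08 in double-mutant mice. The 10 other genes with the smallest root mean square difference from it were *Phlda2* (0.417), *Ldoc1l*, *Aqp11*, *Tuba1c*, *Hapln1*, *Mrgpre*, *Sirpb1a*, *Crlf2*, *Fen1* and *Abhd12* (0.442). The members themselves differed from their own mean by 0.472 (*Taldo1*) to 1.24 (*Pgls*), so all 10 were closer to it than any member. Because the profile is highest in the *Atg7*-KO mice, the choice of these genes fixed that they are higher there; for example, the log2 fold change in *Atg7*-KO against cont. was 0.71 for the aquaporin gene *Aqp11* and 1.43 for the flap endonuclease gene *Fen1*.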

How the data were processed

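The authors sequenced poly(A) RNA of the livers as 75-base single-end reads, and per the labels and methods the reads were trimmed with Trim Galore, mapped to mm10 with STAR and counted with RSEM. Versions, annotation and strand setting are not given in the sources used here. The deposited values are RSEM expected counts per gene, without scaling, 1 column per mouse; they were rounded to whole numbers. The 3 mice labelled p62T352A without Cre were not analysed here. Per the labels each mouse is a separate animal.

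The 9 mice were fitted in 1 model in R 4.3.3 with edgeR 4.0.16 (filterByExpr by genotype, TMM, glmQLFit, glmQLFTest), which tested 13922 genes. A gene was called at a Benjamini-Hochberg FDR under 0.05 over all genes tested and a fold change over 1.5. Standard errors and intervals came from the quasi-likelihood F statistic. Counts were simulated from each gene's mean over the 9 mice, with the same dispersion for every gene and 200 genes changed 4-fold in *Atg7*-KO. Of these, 94% were recovered in *Atg7*-KO against cont. among 13796 genes tested, with 9 false calls. Far more genes were called in the real data, so this checked the code and cannot give their share of false calls. Ratios used a prior count of 0.5 and exact permutation tests, log2 CPM for likeness a prior count of 2. Positions, lengths and overlaps came from GENCODE vM21 on GRCm38, promoters from RefSeq. Python 3.11.15 with matplotlib 3.10.9 drew the figures. Alternatives were DESeq2 1.42.0, its size factors, upper-quartile scaling, library totals, filters, the replicate block, glmTreat, fits of 2 genotypes and left-out mice. Text names all 8 genes, their paralogues, the 2 largest called rises and falls in each list and the 10 genes most like the members. The genes, lists and rules were chosen with earlier results of these data known.

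Same-numbered mice were compared for pairing: their deviations from the genotype means correlated with r from -0.202 to 0.321, 6 of 9 over 0.1, so the numbers were not taken as pairs. Replicates of a genotype differed by 13.3 to 305 times the sampling noise (chi-square per degree of freedom).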

Additional observations from a re-analysis of the deposited data

How the results depend on the processing

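The calls of *G6pdx*, *Pgd* and *Tkt* kept their direction and side of the threshold under all 21 alternatives, and of 504 values of the 8 genes 471 kept their call, 19 lost one and 14 gained one, with 0 reversed. By setting, glmTreat, which tests against the fold threshold itself, called 3 of the 8 genes in *Atg7*-KO against cont., without *Rpia* and *Taldo1* (FDR 0.0509), and over all genes 3855, 4718 and 253 in *Atg7*-KO against cont., the double mutant against *Atg7*-KO and the double mutant against cont. In the last comparison, with 1613 genes called, the replicate block called 988, the fit of the 2 genotypes alone 50 and the fit without the mice numbered 1 called 2975. Leaving out 1 mouse gave 4587 to 7960, 5652 to 8142 and 435 to 3245 genes in the same order, and 4 to 6, 4 to 7 and 0 to 0 of the 8 genes; 3245 and 7960 came without cont. mouse 1 and 435 without double-mutant mouse 3. The mice numbered 1 of all genotypes share their sex-linked transcripts, but the labels do not say what a number marks and not every same-numbered pair deviated together, so the numbers were not taken as pairs (6 of 9 mice correlated best with a mouse of their own number); with the block 5, 4 and 0 of the 8 genes were called: *Rpia* was lost (FDR 0.0526) and *Me1* gained (0.0139) in *Atg7*-KO against cont., and *Taldo1* was lost (0.0575) in the double mutant against *Atg7*-KO. The mice numbered 1 did deviate together, with r of 0.271 and 0.261 for *Atg7*-KO with cont. and with the double mutant, and 0.137 for the latter 2. No fit with the sex-linked difference alone as a factor was run. *Me1* in *Atg7*-KO against cont. also passed with DESeq2 (0.0394), upper-quartile scaling (0.0372), library totals (0.00154) and a filter at a mean of 1 CPM (0.0449). Upper-quartile scaling moved the median of all genes to 0.08 and -0.14 in the comparisons with *Atg7*-KO. The cause of these moves was not tested.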
